A study of Mus musculus with 12 samples.

Results

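DAPT, an inhibitor of γ-secretase, and apicidin, an inhibitor of histone deacetylases, were each given for 24 h to Beko cells, a mouse pre-T cell line, and the results below describe the genes whose response to one drug differed from the response to the other. A response is the mean log2(value + 1) of 2 treated libraries minus that of 2 DMSO libraries of the same experiment, where a value is a gene's read count divided by its library's size factor. The difference is the DAPT response minus the apicidin response, so a positive difference means that a gene stood higher, relative to its own control, with DAPT than with apicidin. It was computed from 8 of the 12 libraries of the study, and 12379 of 23366 gene symbols were tested, those reaching 10 in 2 or more libraries of each experiment. The groups were DAPT at 10 µg/ml and its DMSO control, and apicidin at 0.01 µg/ml and its own DMSO control, with 2 libraries each. The study used DAPT to find genes under Notch control, and apicidin to ask what HDAC3 does at them. The remaining 4 libraries, from Beko cells carrying a hairpin against Hdac3 or a scrambled hairpin 96 h after puromycin, entered no drug response and were read only as a separate comparison near the end.

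All cells came from 1 line, each drug was used at 1 dose and 1 time, and each was run in an experiment of its own, so drug and experiment cannot be told apart. Levels are normalized reads and are compared only within an experiment, because the experiments were normalized separately. The labels do not say whether replicate libraries came from separate cultures, so p-values reflect library-to-library spread only, part or all of which may be technical. In bulk RNA, fewer cells of a type and less RNA per cell cannot be told apart.

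Notch receptors are cut by γ-secretase after they bind a ligand, and the freed intracellular domain joins RBPJ and a Mastermind protein on DNA to switch on genes such as the Hes and Hey repressors. Pre-T cells depend on this signal for growth and for the pre-T cell receptor. Histone deacetylases remove acetyl groups from histones and other proteins, and HDAC3 is the enzyme of the NCoR/SMRT corepressor complexes, so an inhibitor can act at many genes at once.

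Gene read totals were 37237080 to 42815304 in the DAPT experiment's libraries and 21766984 to 29652001 in those of apicidin, and replicates correlated across genes at r = 0.995 to 0.997. All 12 defining pre-T cell markers examined, among them Ptcra, Cd3e, Rag1 and Il2ra, were detected in all 8 libraries, at 198 to 63296 normalized reads. Of the marker lists of B cells, myeloid cells, mast cells, NK cells, stroma, epithelium and erythroid cells, none had more than 2 members that passed the filter. The summed mast cell markers stood at 3856 and 3875 with DAPT against 1484 and 1492 with DMSO, and at 1933 and 2052 with apicidin against 1615 and 1767. That sum was carried by Cpa3 and Kit, while 3 of its 7 members were at 0 in all 8 libraries. The summed myeloid markers, of which 1 of 9 passed the filter and 3 were at 0 throughout, were 472 and 536 with DAPT against 242 and 247, and 752 and 800 with apicidin against 509 and 536. The summed stroma markers, of which 1 of 5 passed the filter and 1 was at 0 throughout, were 80.2 and 82.3 with DAPT against 31.3 and 36.9, and 42.7 and 49.2 with apicidin against 22.9 and 28.4. Put on 1 scale, the control means of the experiments correlated across genes at r = 0.985, and 514 genes (4.15%) stood 2-fold or more apart between them. The difference of responses was called for 47.7% of those genes and for 37.5% of the others; the part of this baseline gap in the differences was not tested. Many genes described below had such a gap. The DAPT experiment's controls were higher for Ctla4 (3.67-fold), Ace (3.50-fold), Slc2a1 (3.33-fold), Cdkn1c (2.56-fold) and Hspd1 (2.13-fold), among others. The apicidin experiment's controls were higher for Klf2 (5.46-fold), Cd6 (3.97-fold), Ccr9 (3.33-fold), Cpa3 (2.60-fold), Cd5 (2.48-fold), Mmp9 (2.47-fold) and Il2rb (2.44-fold), among others.

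The DAPT response and the apicidin response differed at 4700 genes (38% of those tested) at an adjusted p under 0.05 with limma. Of these, 2262 (18.3%) stood higher with DAPT relative to apicidin and 2438 (19.7%) stood lower, with a median size of 1.30-fold. Differences of 2-fold or more were fewer, with 268 genes higher (2.16%) and 117 lower (0.945%). By itself, DAPT changed 4974 genes (40.2%; 2268 rose, 18.3%, and 2706 fell, 21.9%) and apicidin changed 5249 (42.4%; 2483 rose, 20.1%, and 2766 fell, 22.3%). With upper-quartile scaling the DAPT split turned to 2810 up and 2228 down, 55.8% up against 45.6%, and the difference to 2591 higher and 2066 lower. Both drugs changed 2538 genes, 1729 of them (68.1%) in the same direction, and across all tested genes the responses correlated at r = 0.27 and rho = 0.21. The differences sorted into the classes shown in the plot of one response against the other.

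The largest classes held genes called with 1 drug and not the other. With DAPT alone the differing genes numbered 1560 (12.6%), 606 of them raised relative to apicidin (4.9%) and 954 lowered (7.71%). With apicidin alone they numbered 1589 (12.8%), of which 873 fell (7.05%, a positive difference) and 716 rose (5.78%). Another 373 genes (3.01%) moved the same way with both drugs but further with DAPT (159 rose, 1.28%, and 214 fell, 1.73%), and 195 (1.58%) further with apicidin (96 fell, 0.776%, and 99 rose, 0.8%). A further 809 genes (6.54%) moved in opposite directions: 444 rose with DAPT and fell with apicidin (3.59%), and 365 did the reverse (2.95%). That count was 530 with DESeq2 and 515 with limma without an intensity trend. In 174 genes (1.41%) the difference was called and neither response was. Transcripts of the first opposite class had a median GC content of 52.9%, those of the reverse class 47.9%, and those of all tested genes 50.2%. Across genes, the difference and GC content correlated at r = 0.12, and the part of GC content in the classes was not tested.

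**Figure D1:**
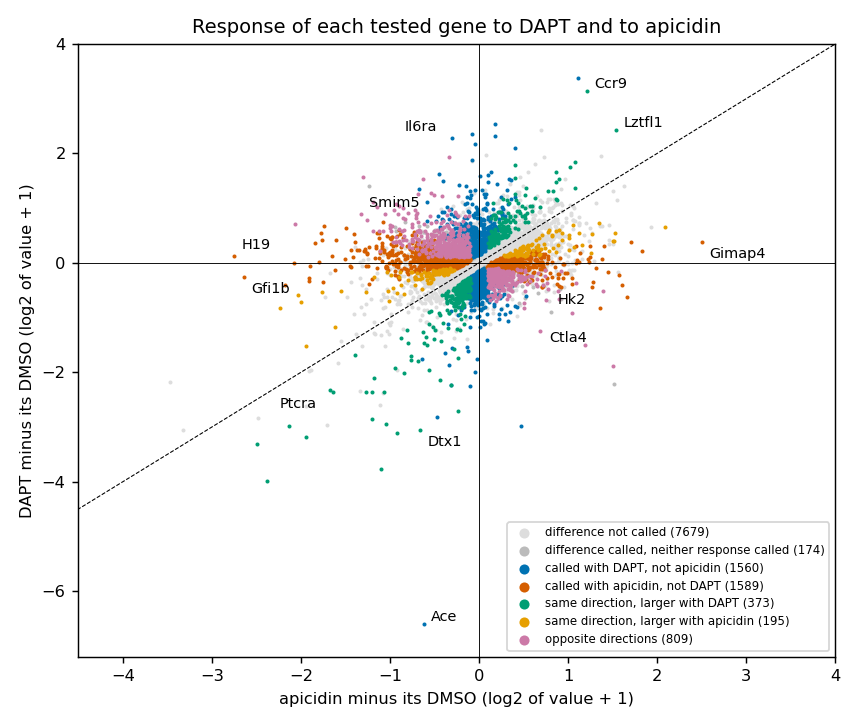
Each point is 1 tested gene, with its apicidin response on the x axis and its DAPT response on the y axis, both as treated minus DMSO in log2(value + 1), coloured by class. The dashed line marks equal responses. Genes far below it, such as Ace and Dtx1, fell more with DAPT, and genes far above it on the left, such as H19 and Smim5, fell with apicidin and not with DAPT.

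Genes of the Notch pathway's own response carried some of the largest differences. Of 22 listed Notch targets 20 were tested, and the difference was negative and called for 12 and positive and called for 4, with a median of -0.63 against -0.01 over all tested genes, of which 19.7% were lower and 18.3% higher. DAPT lowered 13 and raised 6 (median response -0.79), and apicidin lowered 12 and raised 5 (median -0.32), so both drugs lowered most of the list, DAPT by more. Over all tested genes DAPT lowered 21.9% and raised 18.3%, and apicidin lowered 22.3% and raised 20.1%. Under the alternatives, including each library left out, the called counts ran from 11 to 12 lower and from 2 to 6 higher.

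Dtx1, a ubiquitin ligase of the pathway and one of its direct targets, was at 1959 and 1944 with DAPT against 16625 and 15824 with DMSO. With apicidin it was at 4844 and 4798 against 7166 and 8074. Both drugs separated treated from control libraries without overlap, and the fall was -3.05 ± 0.05 (log2, SE) with DAPT and -0.66 ± 0.05 with apicidin, a difference of -2.40 ± 0.07 (adjusted p = 1.2e-16). The repressor Hes1 was at 207 and 229 with DAPT against 698 and 760, and at 504 and 558 with apicidin against 579 and 672. It fell by 1.74 with DAPT and by 0.23 with apicidin, and the difference was -1.50 ± 0.12 (adjusted p = 4.1e-09).

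Hey1, a related repressor, fell with both drugs, from 4218 and 4321 to 826 and 837 with DAPT and from 3145 and 3192 to 1298 and 1334 with apicidin. Its difference, -1.09 ± 0.06, lay between those of Hes1 and of Heyl (-0.72 ± 0.20, adjusted p = 0.007), and the Heyl call was lost without DAPT replicate 2 (-0.40, adjusted p = 0.062). Il2ra, the alpha chain of the interleukin-2 receptor, had a difference of -1.02 ± 0.13, and the feedback inhibitor Nrarp one of -0.70 ± 0.08. The receptor gene Notch1 (-0.64 ± 0.06) and the growth regulator Myc (-0.63 ± 0.06) fell with both drugs and further with DAPT. Notch3, also a receptor gene, fell by 0.89 with DAPT and by 0.80 with apicidin, and its difference of -0.10 ± 0.06 was not called (adjusted p = 0.19).

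Ptcra, the gene of the invariant chain of the pre-T cell receptor, is switched on by Notch in developing T cells. It was at 1531 and 1586 with DAPT against 7897 and 7696, and at 1138 and 1129 with apicidin against 3511 and 3714. No treated library overlapped a control, and the falls of 2.32 and 1.67 left a difference of -0.65 ± 0.06 (adjusted p = 3.0e-08), so this target differed less between the drugs than Dtx1 did. The 150 bases before its RefSeq start (GRCm38.p6, chr17:46763713-46763862, minus strand, 5′ to 3′) are shown because they hold 2 copies of TGGGAA, the core bound by RBPJ, in capitals.
Ptcra: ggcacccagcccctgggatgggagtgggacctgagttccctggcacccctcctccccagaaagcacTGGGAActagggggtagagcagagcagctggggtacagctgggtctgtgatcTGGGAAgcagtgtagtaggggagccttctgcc
On either strand, TGGGAA occurs in 13.1% of all 32851 RefSeq windows of this length, so a match is a description and no evidence of binding. Of the 16 listed Notch targets with such a window, 3 hold it.

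Other listed targets did not follow the falls. Il7r, the interleukin-7 receptor alpha chain, was at 449 and 469 with DAPT against 353 and 364, and at 200.2 and 208 with apicidin against 389 and 367. It rose by 0.36 with DAPT and fell by 0.88 with apicidin (difference 1.24 ± 0.12, adjusted p = 7.4e-08). Trib2, a pseudokinase, showed the reverse, with a fall of 0.30 and a rise of 0.52 (-0.82 ± 0.06). The shared rises of the T cell factors Gata3 (0.75 with DAPT, 0.61 with apicidin) and Tcf7 (0.41 and 0.40) left no called difference (adjusted p = 0.13 and 0.95), although that of Gata3 was called without DMSO replicate 1 of the apicidin experiment (0.24, adjusted p = 0.0047).

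Outside that list, negative differences also came from genes that DAPT lowered and that fell less, or were not called, with apicidin. Ace, which encodes angiotensin-converting enzyme, was at 2.14 and 0.925 with DAPT against 245 and 231 with DMSO, and at 21.9 and 34.6 with apicidin against 40.9 and 44.8. The DAPT libraries held 3 Ace reads in all against 475 in their controls, a ratio of 160-fold (95% interval 54.4 to 778, counting error only). Apicidin left it at -0.62 ± 0.30 (adjusted p = 0.10), and the difference was -5.98 ± 0.42 (adjusted p = 4.5e-10). Coro2a, a coronin of the actin cytoskeleton, was at 373 and 307 with DAPT against 2249.9 and 2185, and at 1413 and 1432 with apicidin against 1678 and 1669. Its difference of -2.47 ± 0.09 came from responses of -2.71 with DAPT and -0.24 with apicidin.

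The interferon-inducible gene Ifi204, which has close paralogs that can share its reads, fell by 2.98 with DAPT and stood at 0.47 ± 0.21 with apicidin (difference -3.44 ± 0.30). Ptpro, a receptor tyrosine phosphatase, was at 39.6 and 36.1 with DAPT against 153 and 155, while its apicidin libraries (141 and 162) overlapped their controls (168 and 144). Nfkb2, the precursor of an NF-κB subunit, was at 693 and 695 with DAPT against 2008 and 2000.1, and at 609 and 576 with apicidin against 654 and 648 (difference -1.39 ± 0.08, adjusted p = 2.4e-11). It had the lowest difference of 13 tested NF-κB feedback genes, of which DAPT raised 5 and lowered 2, against 18.3% and 21.9% of all tested genes. In that list 5 differences were called positive and 3 negative (median 0.12), against 18.3% and 19.7%. Lef1, a partner factor of Wnt signalling in T cell precursors, fell by 0.99 with DAPT, stood at -0.02 ± 0.04 with apicidin, and differed by -0.97 ± 0.06. Ifi204, Ptpro, Nfkb2 and Lef1 all fell with DAPT, and none of these 4 was called with apicidin.

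**Figure D2:**
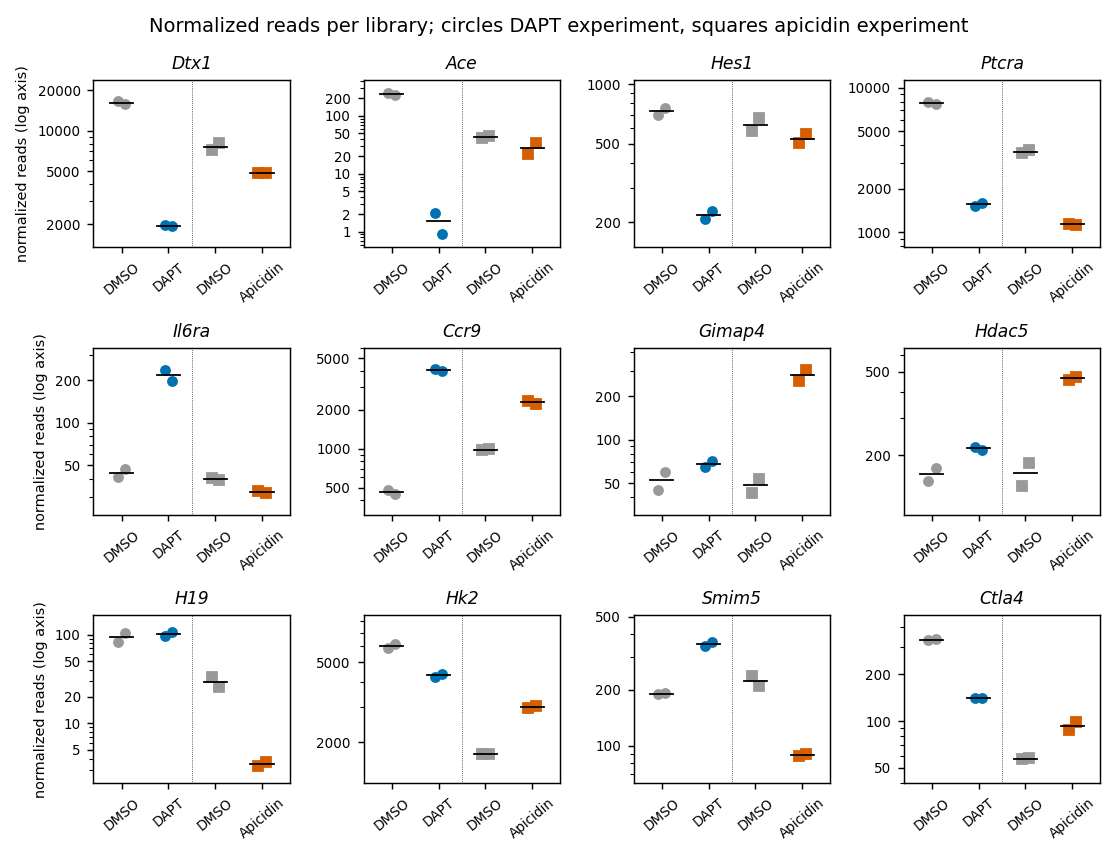
Normalized reads in each of the 8 libraries for 12 genes, on log axes, with circles for the DAPT experiment, squares for the apicidin experiment and horizontal bars for group means (n = 2). Levels are comparable within each side of the dotted line; for instance, Gimap4 and Hdac5 rise with apicidin, while Il6ra rises with DAPT only.

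Genes for making ribosomes fell with DAPT and much less with apicidin. Of 30 listed ribosome biogenesis genes 29 were tested, and the difference was negative and called for all 29, against 19.7% of all tested genes, with a median of -0.48. DAPT lowered all 29 (median -0.62) and apicidin lowered 12 (median -0.08), against 21.9% and 22.3% of all tested genes. The smallest count of called differences in the list under any alternative was 26. Nop2, a methyltransferase of ribosomal RNA, was at 2361 and 2431 with DAPT against 3894 and 3971, whereas its apicidin libraries (2659.8 and 2658) lay within their controls (2618 and 2765). Nolc1, a nucleolar phosphoprotein, fell from 8390.3 and 8369 to 4913 and 5119 with DAPT, with 5028 and 5036 with apicidin against 5244 and 5009. The differences of Nop2 (-0.70 ± 0.06), Nolc1 (-0.71 ± 0.05), the acetyltransferase gene Nat10 (-0.72 ± 0.07) and the 60S assembly factor Ppan (-0.70 ± 0.08) were close to each other, and none of these 4 genes was called with apicidin.

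Chaperones of the cytosol and mitochondria moved the same way. Of 21 tested, 14 had a called negative difference and 0 a positive one (median -0.30), against 19.7% and 18.3% over all tested genes. DAPT lowered 15 and raised 1, and apicidin lowered 4 and raised 3. Over all tested genes DAPT lowered 21.9% and raised 18.3%, and apicidin lowered 22.3% and raised 20.1%. The apicidin counts lie near or below these shares. Hspd1, the mitochondrial chaperonin, was at 15588 and 15499.9 with DAPT against 25542 and 26551, and at 7507 and 7511 with apicidin against 8114 and 7519. Its apicidin response of -0.06 ± 0.04 was not called, and the difference was -0.69 ± 0.06 (adjusted p = 6.9e-09). Hspa4, a nucleotide exchange factor for Hsp70, fell by 0.39 with DAPT and rose by 0.37 with apicidin. Srm, the spermidine synthase gene, fell by 0.92 with DAPT and by 0.34 with apicidin (difference -0.59 ± 0.07). Mxd4, a repressor that competes with MYC for its partner MAX, rose by 1.25 with DAPT and stood at 0.06 ± 0.06 with apicidin (difference 1.20 ± 0.08). They are the extremes of 12 tested MYC network and polyamine genes, a mixed list with 4 called negative and 2 called positive differences (median -0.15). DAPT lowered 6 and raised 4 of these 12, and apicidin lowered 2 and raised 2.

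Windows of 150 bases before the starts of Nop2 (chr6:125131733-125131882, plus strand) and Hspd1 (chr1:55088244-55088393, minus strand; 1 of its 2 RefSeq windows) are shown because they hold CACGTG, the E-box that MYC and its partners bind, in capitals.
Nop2: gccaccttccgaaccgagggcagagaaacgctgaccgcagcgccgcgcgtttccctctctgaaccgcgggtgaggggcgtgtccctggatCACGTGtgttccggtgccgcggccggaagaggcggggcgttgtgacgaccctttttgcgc
Hspd1: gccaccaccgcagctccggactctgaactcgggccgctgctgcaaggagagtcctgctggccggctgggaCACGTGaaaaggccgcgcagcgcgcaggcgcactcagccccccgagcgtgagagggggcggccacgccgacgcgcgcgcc
CACGTG reads the same on both strands and occurs in 4.3% of all RefSeq windows of this length (GRCm38.p6). Neither window holds TGGGAA. Fewer than 80% of the listed genes had a RefSeq window, so no share over a whole list is given. Among those with one, CACGTG occurred in 2 of 23 ribosome biogenesis genes and in 2 of 16 chaperones, so most lacked it.

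DNA replication genes fell with both drugs, more of them with DAPT. Of 24 tested, DAPT lowered 18 and raised 1, and apicidin lowered 10 and raised 3. Over all tested genes DAPT lowered 21.9% and raised 18.3%, and apicidin lowered 22.3% and raised 20.1%. The difference was called and negative for 10 and positive for 2 (median -0.13), against 19.7% and 18.3% over all tested genes. The negative count was 4 without a trend, which is near that share. Only the helicase subunit genes Mcm3 (-0.37) and Mcm6 (-0.36) moved in opposite directions, falling with DAPT and rising by 0.11 with apicidin. Among 18 tested genes of the ATF4 and amino acid list, 8 had called negative and 3 called positive differences (median -0.11), against 19.7% and 18.3% over all tested genes. DAPT lowered 12 and raised 3, and apicidin lowered 8 and raised 3, and both counts of rises lie near the shares over all tested genes. Asns, the asparagine synthetase gene, fell by 0.88 with DAPT and stood at -0.31 ± 0.14 with apicidin (difference -0.57 ± 0.19). That difference was not called without apicidin replicate 2 or any 1 library of the DAPT experiment (adjusted p = 0.052 to 0.12), with DESeq2 or without a filter. Of the 3 positive members, Slc7a11, the cystine transporter, rose by 0.17 with DAPT and fell by 0.50 with apicidin. Atf5, a transcription factor of the same response, stood at -0.01 ± 0.08 with DAPT and fell by 0.61 with apicidin. Ribosomal protein genes, in contrast to the ribosome assembly genes, fell with both drugs: of 30 tested, DAPT lowered 21 and apicidin 26, and the difference was called and positive for 6 (median 0.06), near the 18.3% of all tested genes. That count was 3 without apicidin replicate 1, 2 without a trend and 11 with upper-quartile factors.

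**Figure D3:**
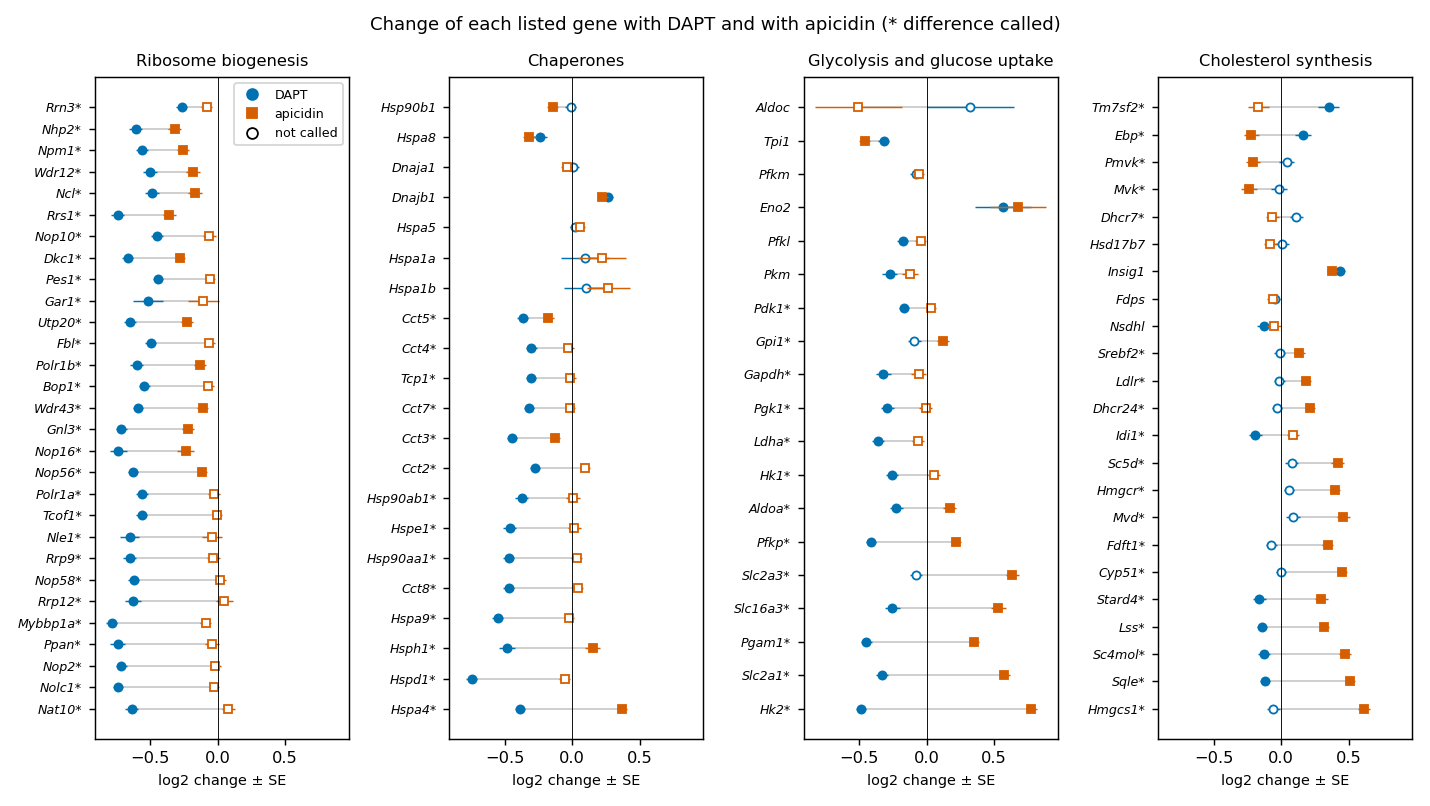
Log2 change ± SE of each tested member of 4 gene lists, with DAPT as blue circles and apicidin as orange squares; filled symbols are called changes and an asterisk marks a called difference. In ribosome biogenesis all 29 blue points lie left of the orange ones, and Hk2 and Hmgcs1 have orange points to the right of 0.

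Glucose uptake and glycolysis genes were lowered by DAPT and partly raised by apicidin. Of 19 tested, 13 had a called negative difference and 0 a positive one (median -0.28), against 19.7% and 18.3% over all tested genes. DAPT lowered 14 and raised 1 (median -0.26), apicidin raised 9 and lowered 1 (median 0.05), and 6 members moved in opposite directions. Over all tested genes, DAPT lowered 21.9% and raised 18.3%, apicidin raised 20.1% and lowered 22.3%, and 6.54% moved in opposite directions. Hk2, the hexokinase that traps glucose in the cell, was at 4226 and 4378 with DAPT against 5898 and 6159, and at 2966 and 3015 with apicidin against 1749.8 and 1742. It fell by 0.49 with DAPT and rose by 0.78 with apicidin, with no overlap in either experiment (difference -1.26 ± 0.06, adjusted p = 3.3e-13).

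Slc2a1, the glucose transporter GLUT1, was at 5240.1 and 5193 with DAPT against 6722 and 6395, and at 1903 and 1841 with apicidin against 1218 and 1294. Its difference was -0.91 ± 0.06, and those of the glycolytic mutase Pgam1 (-0.80 ± 0.05) and the lactate exporter Slc16a3 (-0.78 ± 0.08) followed, each with a fall with DAPT and a rise with apicidin. On 1 scale the DAPT experiment's controls were higher for Slc2a1 (3.33-fold), Hk2 (2.20-fold), Slc16a3 (2.09-fold) and Pgam1 (1.90-fold). Whether that gap bears on the differences was not tested. Slc2a1 and Slc16a3 also fell after Hdac3 knockdown (-0.87 and -1.22), as did Hk2 (-0.50), so for these 3 genes the hairpin and apicidin moved levels in opposite directions.

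Sterol synthesis differed mainly through apicidin. Of 23 tested cholesterol synthesis genes, apicidin raised 14 and lowered 3 (median 0.21), DAPT raised 3 and lowered 6 (median -0.01), and the difference was called and negative for 14 and positive for 5 (median -0.24). Over all tested genes, apicidin raised 20.1% and lowered 22.3%, and DAPT raised 18.3% and lowered 21.9%. The difference was called and negative for 19.7% of them and positive for 18.3%. The positive count lies near its share. The 5 positive members, named after their values were seen, were Mvk, Pmvk, Tm7sf2, Ebp and Dhcr7; their number was 2 without DAPT replicate 2 or without DMSO replicate 2 of the DAPT experiment, and 3 without either apicidin library or without DMSO replicate 2 of the apicidin experiment. Hmgcs1, the first committed step of the pathway after acetoacetyl-CoA, was at 20062 and 20414 with apicidin against 13191 and 13263. With DAPT it was at 91541 and 95684 against 94017 and 100959, and the groups overlapped. Its difference was -0.67 ± 0.07 (adjusted p = 6.8e-08), and those of the squalene epoxidase gene Sqle (-0.63 ± 0.05) and of Sc4mol, a sterol C4 oxidase (-0.60 ± 0.06), were near it. On 1 scale the controls of the DAPT experiment held 4.70-fold more Hmgcs1 and 5.58-fold more Sc4mol than those of the apicidin experiment, and whether that gap bears on the differences was not tested.

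The lipogenic genes Fasn and Scd2 repeated the pattern, with a rise of 0.37 for each with apicidin and DAPT responses of -0.02 ± 0.05 and 0.03 ± 0.05. In their list of 12 tested LXR and lipogenic genes, apicidin raised 9 and lowered 1, against 20.1% and 22.3% of all tested genes. In that list 5 differences were called, all negative, under each alternative that kept all 8 libraries. The called share of the list, 41.7%, was near the 38% of all tested genes, while 19.7% of all tested genes were called lower. The 150 bases before the Hmgcs1 start (GRCm38.p6, chr13:119690201-119690350, plus strand) are shown because they hold the sterol response element TCACNCCAC, bound by SREBP factors, in capitals.
Hmgcs1: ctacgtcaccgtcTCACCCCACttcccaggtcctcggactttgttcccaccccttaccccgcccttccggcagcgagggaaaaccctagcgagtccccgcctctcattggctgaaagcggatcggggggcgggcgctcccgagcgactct
On either strand, TCACNCCAC occurs in 0.639% of RefSeq windows of this length. Of the 15 listed cholesterol synthesis genes with such a window, 1 holds it, Hmgcs1. The window also holds TGGGAA on the opposite strand at 2 places, 1 of them directly after the capitals, without overlap.

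The Gimap genes, a cluster of GTPases that act in lymphocyte survival, rose mainly with apicidin. All 8 listed members were tested and all 8 rose with apicidin (median 1.25), while DAPT raised 4 (median 0.33), and 7 differences were called and negative (median -0.95). Over all tested genes, apicidin raised 20.1%, DAPT raised 18.3%, and the difference was called and negative for 19.7%. Gimap4 was at 256 and 302 with apicidin against 43.2 and 53.6, and its DAPT libraries, at 65.2 and 71.2, stood just above their controls at 45.1 and 59.7. Its difference was -2.12 ± 0.26 (adjusted p = 1.3e-06). Gimap7 was at 318 and 319 with apicidin against 118 and 114, and at 161 and 153 with DAPT against 179 and 176. For Gimap6 the rise was 1.26 with apicidin and 0.19 with DAPT, and for Gimap8 it was 1.53 and 0.55. The members are similar in sequence, and reads of close paralogs may be split between them.

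Hdac5, a class II histone deacetylase gene, was at 456 and 472 with apicidin against 143 and 185, and at 218 and 213 with DAPT against 151 and 174. Both drugs raised it, by 1.51 and 0.41, and the difference was -1.10 ± 0.17 (adjusted p = 2.7e-05). In its list of 15 tested deacetylase and NCoR genes, 4 differences were called (26.7%, below the 38% over all tested genes), 2 of each sign. Mmp9, a matrix metalloprotease, rose by 2.09 with apicidin and 0.66 with DAPT, and Gpr65, an acid-sensing receptor, by 1.60 with apicidin, against -0.40 ± 0.21 with DAPT. The cytokine gene Tnf was at 359 and 341 with apicidin against 159 and 153, and at 185 and 159 with DAPT against 139 and 136 (difference -0.84 ± 0.16). The clock repressor Per1 (0.96), the transcription factor Foxo1 (0.82) and the immediate early gene Ier2 (0.68) rose with apicidin, and their DAPT responses of -0.03 ± 0.10, 0.02 ± 0.07 and -0.04 ± 0.08 were not called. Their differences were -0.99 ± 0.14, -0.80 ± 0.10 and -0.72 ± 0.11. The lists of Per1 and Ier2 were mixed. Of 12 tested clock genes, apicidin raised 1 and lowered 3, and 5 differences were called positive and 2 negative. Of 15 tested immediate early genes, DAPT raised 8 and lowered 1, and apicidin raised 6 and lowered 0. Their called differences were 5 of each sign. Over all tested genes, DAPT raised 18.3%, apicidin raised 20.1% and lowered 22.3%, and 18.3% of differences were called positive and 19.7% negative.

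Other genes fell with apicidin and not with DAPT. H19, an imprinted noncoding RNA, was at 3.28 and 3.64 with apicidin against 32.9 and 25.5, and at 96.2 and 106 with DAPT against 82.1 and 105. Only the apicidin groups were separate, and the difference was 2.87 ± 0.36 (adjusted p = 2.2e-06). Gfi1b, a repressor of blood cell genes, was at 4.38 and 10.0 with apicidin against 39.8 and 55.4, and at 149 and 134 with DAPT against 169 and 169, a difference of 2.38 ± 0.37. Bmp1, a secreted protease, fell by 1.84 with apicidin, and the T cell surface receptor gene Cd6 by 1.74; their DAPT responses of 0.36 ± 0.25 and 0.67 ± 0.31 were not called. Rab44, a small GTPase gene, fell with both drugs, by 2.03 with apicidin and by 0.58 with DAPT (difference 1.45 ± 0.09).

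Histone and mitosis genes fell with apicidin by small amounts. Of 21 tested clustered histone genes, apicidin lowered 14 and raised 0 (median -0.22), DAPT raised 5 and lowered 0 (median 0.11), and the difference was called and positive for 13 (median 0.30). That count was 20 without DMSO replicate 1 of the apicidin experiment and 5 with limma without a trend. The count of 5 and the 5 rises with DAPT are each near the 18.3% of all tested genes. Near-identical copies share reads. Hist1h2bg was at 87821 and 91022 with apicidin against 106909 and 114565, and at 168459 and 163656 with DAPT against 156868 and 151676 (difference 0.41 ± 0.09). Of 22 tested mitosis genes, apicidin lowered 13 and raised 1, and 10 differences were called positive and 2 negative (median 0.14). Over all tested genes apicidin lowered 22.3%, and 18.3% of differences were positive. The positive count was 6 without DMSO replicate 1 of the DAPT experiment and 5 without a trend, the latter near that share. Ube2c, the ubiquitin-conjugating enzyme of mitotic exit, fell by 0.55 with apicidin and stood at 0.08 ± 0.04 with DAPT.

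**Figure D4:**
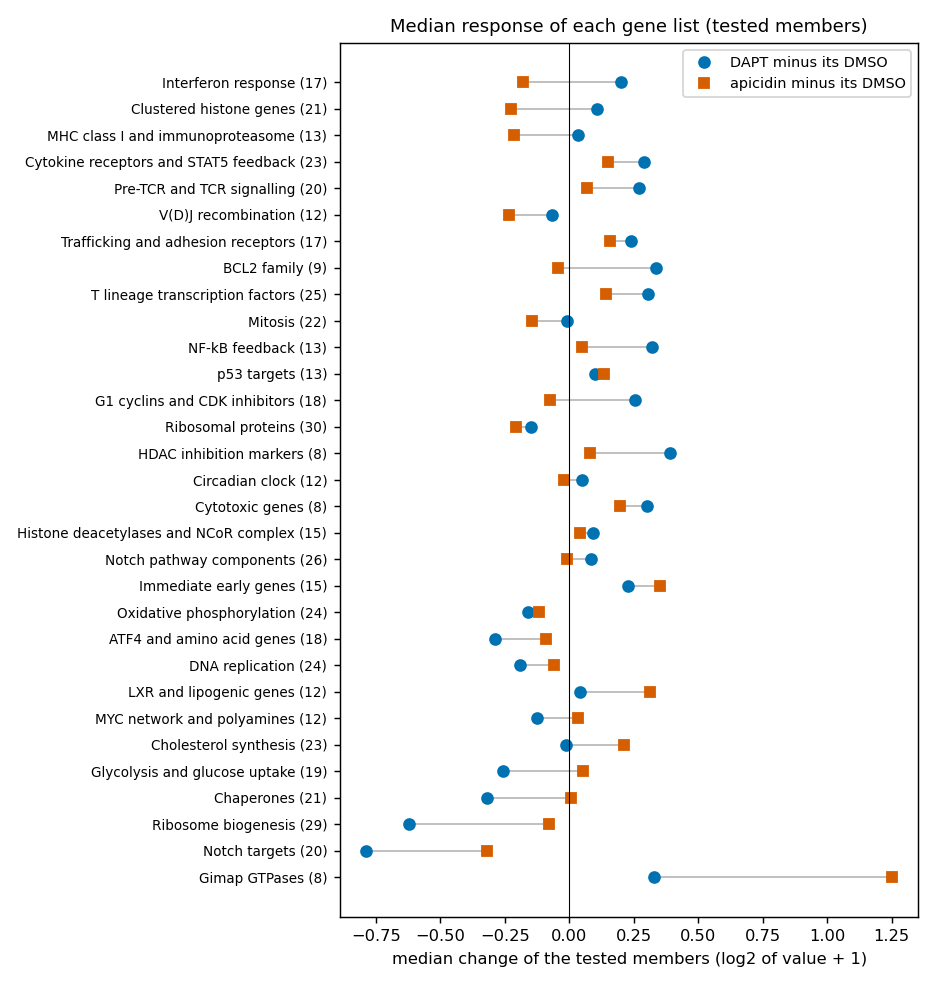
Median log2 change of the tested members of each gene list (number tested in brackets), with DAPT as blue circles and apicidin as orange squares, sorted by the median difference. Notch targets and ribosome biogenesis have the lowest DAPT medians (-0.79 and -0.62), and the Gimap genes the highest apicidin median (1.25).

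DAPT also raised genes that apicidin left or raised less. Ccr9, the chemokine receptor that guides precursors in the thymus and gut, was at 4155 and 3999 with DAPT against 480.1 and 445, and at 2329 and 2229 with apicidin against 982 and 988. It rose with both, by 3.14 and by 1.21, and the difference was 1.93 ± 0.07 (adjusted p = 2.7e-14). Lztfl1, its neighbour on the chromosome, rose by 2.42 and by 1.54 (difference 0.88 ± 0.06). Il6ra, the interleukin-6 receptor alpha chain, was at 237 and 197 with DAPT against 41.0 and 47.0, and at 32.8 and 31.8 with apicidin against 40.9 and 39.6. The apicidin response of -0.31 ± 0.19 was not called, and the difference was 2.58 ± 0.27 (adjusted p = 1.9e-07).

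Cpa3, the mast cell carboxypeptidase also made by early progenitors, was at 1314 and 1262 with DAPT against 302 and 272, and at 457 and 468 with apicidin against 475 and 478. The receptor tyrosine kinase Kit rose by 1.10 with DAPT and by 0.34 with apicidin (difference 0.77 ± 0.08). Both are mast cell markers, and the mast cell genes Ms4a2, Fcer1a, Hdc, Tpsb2 and Mcpt4 did not pass the filter; their part in the result was not tested. Cilp, a cartilage matrix protein gene, rose by 2.54 with DAPT and stood at 0.18 ± 0.18 with apicidin. In the list of 17 tested trafficking receptors 8 differences were called and positive (5 without a trend) and 0 negative, and among 23 tested cytokine receptor and STAT5 feedback genes 6 were positive and 4 negative. The shares over all tested genes were 18.3% and 19.7%, and the cytokine receptor counts lie near them. Ifngr1, the interferon-γ receptor alpha chain, was at 10677 and 10486 with DAPT against 4798 and 4708, and at 4521 and 4627 with apicidin against 3679 and 3665 (difference 0.84 ± 0.05).

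T cell receptor genes divided by member. Of 20 tested, 11 differences were called positive and 6 negative (median 0.23), against 18.3% and 19.7% of all tested genes. Sla, an adaptor that dampens receptor signalling, was at 14496 and 14081 with DAPT against 6762 and 6549.6, and at 6311 and 6396 with apicidin against 5724 and 5685 (difference 0.95 ± 0.05). The inhibitory receptor gene Cd5 rose by 0.75 with DAPT and stood at -0.30 ± 0.14 with apicidin (difference 1.05 ± 0.20). Of 25 tested T lineage transcription factors, 9 differences were called positive and 2 negative, the latter being Lef1 and Foxo1, against 18.3% and 19.7% of all tested genes. The positive count was 5 without a trend, which is near that share. Klf2 rose by 1.53 with DAPT (difference 1.19 ± 0.44), and that call was lost without any of DAPT replicate 1, DAPT replicate 2, apicidin replicate 1 or replicate 2 of either DMSO group (adjusted p = 0.058 to 0.25), and with DESeq2, without a filter or without a trend.

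The 809 genes moved in opposite directions had modest changes, with 2-fold or more with each drug in 5 of them. Smim5, a small membrane protein gene, was at 347 and 364 with DAPT against 189.8 and 192, and at 87.5 and 90.0 with apicidin against 237 and 210.1. It rose by 0.89 with DAPT and fell by 1.32 with apicidin (difference 2.22 ± 0.16, adjusted p = 6.5e-10). Il2rb, the beta chain of the interleukin-2 receptor, was at 149 and 171 with DAPT against 84.1 and 84.2, and at 78.8 and 83.7 with apicidin against 127 and 137 (difference 1.61 ± 0.21). In both genes all 4 treated libraries lay outside the range of their controls.

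Inhibitors of the cell cycle were among them. Of 18 tested G1 cyclin and CDK inhibitor genes, 7 differences were called positive and 1 negative, and 4 members moved in opposite directions, against 18.3%, 19.7% and 6.54% of all tested genes. Cdkn1a, the p21 gene that many histone deacetylase inhibitors raise in other cells, was at 684 and 759 with DAPT against 612 and 577, and at 382 and 345 with apicidin against 599.9 and 627. It rose by 0.28 with DAPT and fell by 0.76 with apicidin, and the difference was 1.03 ± 0.11 (adjusted p = 1.5e-07). Cdkn1a had the largest positive difference among 8 tested marker genes of histone deacetylase inhibition. Of these 8, apicidin raised 4 and lowered 3, against 20.1% and 22.3% of all tested genes. DAPT raised 5 and lowered 2, against 18.3% and 21.9%. Their differences were called positive for 2 and negative for 1, and the called share of 37.5% was near the 38% of all tested genes. Cdkn1c, the p57 gene, rose by 0.58 and fell by 0.99 (difference 1.57 ± 0.19), and Cdkn2c, the p18 gene, rose by 0.30 and fell by 0.38. Bcl2l1, the survival gene for BCL-XL, rose by 0.51 and fell by 0.52 (difference 1.03 ± 0.09).

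Of 13 tested MHC class I and immunoproteasome genes, 9 differences were called positive and 1 negative (median 0.28), against 18.3% higher and 19.7% lower over all tested genes. DAPT raised 4 and lowered 2 of them, apicidin raised 2 and lowered 8, and 2 moved in opposite directions. Over all tested genes DAPT raised 18.3% and lowered 21.9%, apicidin raised 20.1% and lowered 22.3%, and 6.54% moved in opposite directions. Tap2, a subunit of the transporter that loads peptides, was at 9297 and 9649 with DAPT against 7157 and 6889, and at 4894 and 4942 with apicidin against 5742 and 5663 (difference 0.65 ± 0.05). Among 17 tested interferon response genes, 7 were positive and 1 negative (median 0.32). The positive count was 4 without a trend, which is near the 18.3% of all tested genes. DAPT raised 7 and lowered 2 of them, apicidin raised 3 and lowered 6, and 2 moved in opposite directions. Gbp2, a GTPase of host defence, rose by 0.92 with DAPT and fell by 0.80 with apicidin. Dntt, the polymerase that adds bases at V(D)J joints, was at 45589 and 44469.9 with DAPT against 31616 and 32101, and at 15033 and 15542 with apicidin against 22567 and 21486 (difference 1.03 ± 0.06, adjusted p = 2.5e-11). The zinc finger repressor Gfi1 rose by 0.36 with DAPT and fell by 0.34 with apicidin.

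The reverse orientation, down with DAPT and up with apicidin, included Ctla4, an inhibitory receptor of T cells. It was at 140.04 and 141 with DAPT against 331 and 337, and at 87.5 and 99.1 with apicidin against 56.8 and 58.0, a difference of -1.93 ± 0.19 (adjusted p = 7.4e-08). The phosphatase-like gene Mtmr9 was at 2156 and 2159 with DAPT against 3444 and 3458, and at 3244 and 3351 with apicidin against 1942 and 1960.3 (difference -1.43 ± 0.06). Prkab2, a regulatory subunit of the energy sensor AMPK, fell by 0.52 and rose by 0.88. Treated and control libraries did not overlap for either drug in these 3 genes.

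The hairpin against Hdac3 offered a comparison in libraries that chose none of these classes. Hdac3 itself was at 774 and 819 with the hairpin against 2012 and 1930.1 with the scrambled one. Over the 12204 genes tested in both fits, knockdown raised 22.9% and lowered 19.3%. Of the genes that rose with DAPT and fell with apicidin, 443 were tested there and 216 fell (48.8%) while 58 rose (13.1%). Of the genes that fell with DAPT and rose with apicidin, 364 were tested, 222 rose (61.0%) and 36 fell (9.89%). In both opposite classes the knockdown thus moved more members the way apicidin had than the way DAPT had.

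The 1-drug classes leaned too, those of apicidin the way apicidin had moved them and those of DAPT against the way DAPT had. Genes raised by apicidin alone rose with the hairpin in 292 of 714 cases (40.9%) and fell in 68, and genes lowered by apicidin alone fell in 317 of 872 (36.4%) and rose in 85. Genes lowered by DAPT alone, and not called with apicidin, rose with the hairpin in 499 of 954 cases (52.3%) and fell in 59, and genes raised by DAPT alone fell in 211 of 603 (35.0%) and rose in 106. Of the 29 ribosome biogenesis genes, of which DAPT lowered 29 and apicidin lowered 12 and raised 0, 23 rose with the hairpin and 0 fell. That list thus departed from the way either drug had moved it. Other groups also departed from the way apicidin had moved them. Of the 24 DNA replication genes, of which apicidin lowered 10 and raised 3, the hairpin raised 21 and lowered 0. Of the genes that both drugs lowered, further with DAPT, 95 of 214 rose with the hairpin (44.4%) and 51 fell. Of the 19 glycolysis genes, of which apicidin raised 9, the hairpin lowered 14 and raised 0, and of 14 immediate early genes tested it lowered 10 and raised 0, although apicidin raised 6 of 15. Among single genes, Ctla4 rose with apicidin and fell with the hairpin (-1.16), and Cpa3 rose with DAPT and with the hairpin (1.33). Ccr9 rose with both drugs and with the hairpin (1.23), so it did not depart. The opposite and 1-drug classes also differ in level, with medians of 899.8 to 2009 normalized reads against 457 to 559 among genes whose difference was not called, and the part of level in these shares was not tested.

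**Figure D5:**
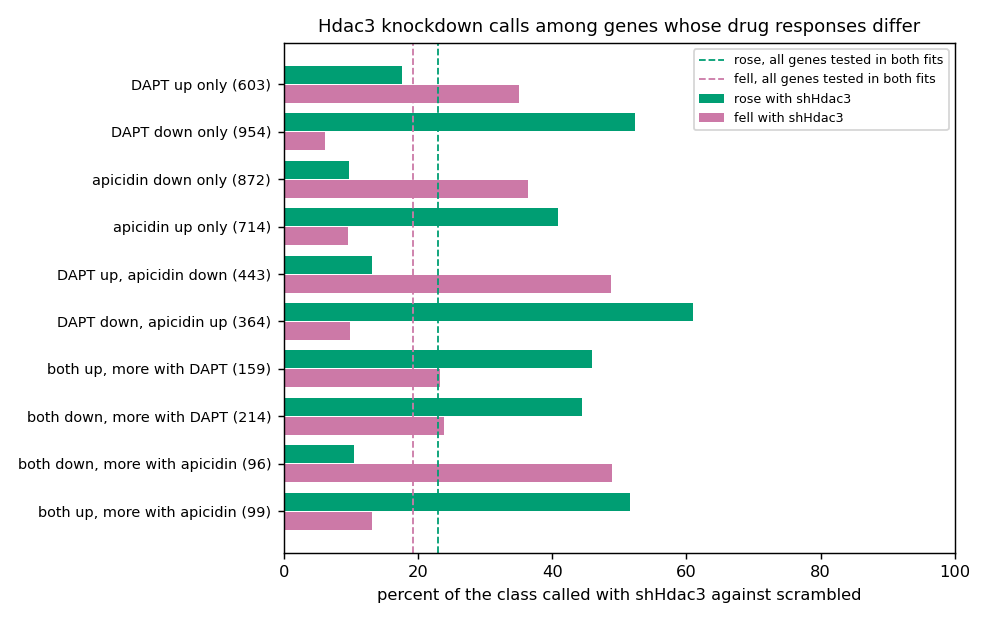
Share of each class of differing genes (number tested in brackets) that rose (green) or fell (pink) with the hairpin against Hdac3, with dashed lines at the shares over all genes tested in both fits, 22.9% and 19.3%. The bars reach 61.0% rising for genes down with DAPT and up with apicidin, and 48.8% falling for the reverse.

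Some large responses did not differ between the drugs. Called changes of 2-fold or more were 138 rises (1.11%) and 112 falls (0.905%) with DAPT, and 89 rises (0.719%) and 158 falls (1.28%) with apicidin. Both drugs raised 12 genes and lowered 37 by 2-fold or more, and for 21 of these 49 the difference was called. Usp18, which removes the ubiquitin-like protein ISG15, rose by 1.04 with DAPT and 1.05 with apicidin, and the nuclear receptor gene Rora by 1.05 and 1.02. Their differences were -0.01 and 0.02, with SE of 0.13 and 0.10. A difference that was not called does not show that 2 responses are equal: at the median SE of 0.09, small differences would not have been called.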

How the data were processed

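RNA-seq libraries of Beko cells were compared across 4 groups of 2. Per the submitters' processing notes, FastQC, Bowtie2, TopHat, DESeq2 and mm9 were used; which counter, annotation and strand option were used is not given in the sources used here. Values as the authors deposited them are a signal: reads per gene symbol divided by 1 size factor per library, each table normalized on its own. The authors' deposited log2 fold changes, p-values and score (Wald statistic) were not used. Dividing by the recovered size factors gave whole reads for 100% of values (tolerance 1e-06).

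Here limma 3.58.1 (R 4.3.3) was fitted with an intensity trend to log2(value + 1) of the 8 libraries in 4 groups, for genes with 10 or more in at least 2 libraries of each table. The difference was a contrast of the 4 groups. Adjusted p-values are Benjamini-Hochberg over all genes tested, two-sided, and a call is an adjusted p under 0.05. The Hdac3 hairpin was fitted in the same way in its own table. The script was tested on simulated data. Intervals are exact and cover counting error only.

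The members and gene lists were chosen with earlier results of these data known. Named genes were taken from the largest differences over all genes and per class, and from up to 4 called members per list. The tested Notch targets and the closest shared responses were also open to naming. Not every gene this rule allowed is named, and the Notch section describes only part of its list. Ifi204, histone and Gimap reads may be shared by paralogs, and overlapping or antisense genes cannot be told apart. Replicate numbers did not pair libraries (correlation of deviations 0.02 with DAPT, 0.04 with apicidin). Alternatives were other filters, pseudocounts, scalings, tests, a replicate block and each library left out.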

Additional observations from a re-analysis of the deposited data

How the results depend on the processing

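Small differences, the choice of test and 2 libraries per group limit these results: at the median SE of 0.09 a small difference is not called, and drug and experiment cannot be told apart. With 1 library left out, its group's other library is assumed to vary like the other groups. The count of genes whose responses differed was then 3729 to 4445 against 4700 (higher 1778 to 2125, lower 1932 to 2320). DAPT changed 3739 to 5250 genes, apicidin 4005 to 5180, and opposite directions held for 574 to 798 (313 to 456 up with DAPT, 261 to 342 down). Of the hairpin counts, 183 to 202 of the first opposite class fell and 188 to 207 of the reverse class rose without 1 hairpin or scrambled library. Over the other alternatives the count of differing genes ran from 3411 to 4771.

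With DESeq2, apicidin lowered 1809 genes, opposite directions held for 530, and 284 of these were up with DAPT. Without an intensity trend opposite directions held for 515 genes, 210 of them down with DAPT. The cause of these shifts was not tested. The fit with a replicate block, for numbers that do not pair the libraries, called 4771 differences (2305 higher, 2466 lower).

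Of the 93 genes named in the text and tested, 83 had the same call in every setting. Only differences near 0 that were not called changed sign among the genes named: Tcf7 was -0.00390 with DESeq2 and -0.033 to 0.046 with 1 library left out, Usp18 was 0.00227 with edgeR, 0.022 with upper-quartile factors and -0.12 to 0.10 with 1 library left out, and Rora was -0.045 to 0.092 with 1 library left out. The call of Asns was lost with DESeq2 and without a filter. The calls of Dhcr7, Klf2, Mvk and Pmvk were lost with DESeq2 and without a trend, that of Heyl without a trend, those of Dhcr7, Klf2 and Mvk without a filter, and that of Dhcr7 with all 12 libraries.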
